A study of Mus musculus with 8 samples.

Results

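The genes described here are the components of the NLRP3 inflammasome and its close relatives, together with the cytokine that it matures. They are Nlrp3, Nlrp10, Pycard, Casp1, Casp4, Aim2, Gsdmd and Il18, which were chosen by their symbols and make up 8 of the 22740 protein-coding genes counted. All 8 of them passed the filter on low counts, which kept 15163 genes for testing. Whole skin of 8 female BALB/c mice, aged 6 to 8 weeks and fed a low-fibre diet, was sequenced, with 2 mice in each of 4 groups. Baseline CTL mice drank water and were not exposed to allergen, while baseline butyrate mice, which the labels call SCFA, drank 400 mM sodium butyrate. Lesional CTL mice drank water and had 15 µg of house dust mite (HDM) extract applied to the skin 4 times over 2 weeks, which the labels call atopic dermatitis. Lesional butyrate mice had the same exposure and drank 400 mM sodium butyrate from 2 weeks before it and throughout. The HDM was applied on gauze under an occlusive dressing to shaved skin. Whether baseline skin was shaved or dressed, and how long baseline mice drank butyrate, is not stated for the sequenced mice. The baseline mice also carry another first number in their labels than the lesional mice. HDM exposure, shaving, the dressing, the set of mice and any difference in age or time on butyrate therefore cannot be told apart. Differences given below as those with HDM hold all of these together.

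An inflammasome is a protein platform that forms in the cytosol after a sensor has met a microbial or danger signal. The sensor recruits the adaptor ASC, ASC recruits procaspase-1, and active caspase-1 cuts the precursors of IL-1β and IL-18 and the pore-forming protein gasdermin D. Transcription of Nlrp3 and Il1b is known to be raised by NF-κB in myeloid cells, a step called priming, whereas keratinocytes hold IL-18 precursor without stimulation. The measurements here are of transcripts and say nothing of protein, cleavage or pore formation.

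Each of the genes was located by its identifier in GENCODE vM21 on GRCm38. The sensor gene Nlrp3 lies on chromosome 11 at 59541568 to 59566956 on the plus strand, and Nlrp10 on chromosome 7 at 108921852 to 108930178 on the minus strand. The ASC gene Pycard is also on chromosome 7, at 127989708 to 127993867 on the minus strand. The caspase genes Casp1, at 5298517 to 5307265, and Casp4, at 5308828 to 5336783, follow each other on the plus strand of chromosome 9 with 1562 bases between them. Il18 is on the same chromosome at 50554827 to 50581840 on the plus strand. The DNA sensor gene Aim2 is on chromosome 1 at 173350879 to 173466040, and Gsdmd is on chromosome 15 at 75862327 to 75867408, both on the plus strand.

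Averaged over water and butyrate, Nlrp3 and Casp4 were the genes of the list called higher in lesional skin, and Il18 was not. For this reason the 250 bases before the starts of these genes were compared, as given by RefSeq on GRCm38.p6. Windows of 250 bases were found for 6 of the 8 genes, and 3 motifs were searched on both strands: the κB letters GGGA, any 4 bases and CC, the AP-1 letters TGANTCA, and the core of the interferon-stimulated response element, GAAA, any 2 bases and GAAA. Capitals mark a match. The Nlrp3 window is chr11:59541319-59541568, that of Casp4 is chr9:5308599-5308848 and that of Il18 is chr9:50554450-50554699, all on the plus strand and written 5′ to 3′.
Nlrp3: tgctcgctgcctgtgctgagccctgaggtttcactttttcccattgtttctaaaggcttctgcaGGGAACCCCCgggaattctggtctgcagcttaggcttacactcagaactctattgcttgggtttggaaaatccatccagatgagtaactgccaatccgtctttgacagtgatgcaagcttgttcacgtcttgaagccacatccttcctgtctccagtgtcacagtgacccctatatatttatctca
Casp4: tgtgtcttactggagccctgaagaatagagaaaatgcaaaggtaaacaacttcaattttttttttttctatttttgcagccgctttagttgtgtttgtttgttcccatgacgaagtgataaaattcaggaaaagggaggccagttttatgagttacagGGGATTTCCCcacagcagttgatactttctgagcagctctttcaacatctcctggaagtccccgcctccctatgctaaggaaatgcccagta
Il18: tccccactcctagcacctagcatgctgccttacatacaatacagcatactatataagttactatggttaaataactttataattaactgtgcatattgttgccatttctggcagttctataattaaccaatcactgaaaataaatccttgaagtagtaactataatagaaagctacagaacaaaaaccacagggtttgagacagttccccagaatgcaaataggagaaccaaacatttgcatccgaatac
The Nlrp3 window held the κB letters GGGAACCCCC, which begin 186 bases before the start. In the Casp4 window they were GGGATTTCCC, beginning 92 bases before the start. None of the 3 motifs was in the Il18 window, in those of Casp1, Pycard and Aim2, or in a second Nlrp3 window. The κB letters were found in 17.6% of all 32851 windows of this length, the AP-1 letters in 6.75% and the response element core in 2.98%. A match is a match of letters and not evidence of binding. The genes were chosen by their levels in these mice, and the Nlrp3 window shown is the one that held a match. The part of any of these motifs in the levels was not tested.

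Library totals were between 18004136 and 21085544 counts, and levels are given as CPM, the counts relative to library size scaled by TMM, where 3 counts were worth 0.138 to 0.169 CPM. Baseline butyrate replicate 3 stood apart from the other 7 mice. Its 14 markers of the growing hair follicle summed to 20700 CPM against 17.6 to 31.4 CPM in the others, and its suprabasal keratinocyte markers summed to 3710 CPM against 15000 CPM in the other baseline butyrate mouse. Of 14319 genes with at least 1 CPM on average, 27.1% differed by over 2-fold between the 2 baseline butyrate mice, against 1.79% to 5.01% in the other groups. Among the inflammasome genes, 5 of 8 differed by over 2-fold between these mice and 0 of 8 did so in any other group. Values without this mouse are given below for the main changes of the 8 genes. For genes of the other lists, only whether the calls were kept without it is given.

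Nlrp3, the sensor that gives the inflammasome its name, was the lowest of the 8 genes in baseline skin and rose most in lesional CTL skin. It was at 1.17 and 1.94 CPM in the baseline CTL mice and at 1.24 and 0.238 CPM in the baseline butyrate mice, the last value being 5 counts with an exact Poisson interval of 0.0773 to 0.556 CPM. In lesional skin, Nlrp3 was at 13.1 and 17.2 CPM in the CTL mice and at 2.29 and 3.16 CPM in the butyrate mice. Both lesional CTL mice were thus above all 6 other mice, and both lesional butyrate mice were above all 4 baseline mice.

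Nlrp10, which lacks the leucine-rich repeats of other NLR proteins, was at 85.2 and 74.5 CPM in the baseline CTL mice and at 92.5 and 76.6 CPM in the baseline butyrate mice. It was at 63.0 and 54.7 CPM in the lesional CTL mice, the lowest pair of the 4 groups. In the lesional butyrate mice Nlrp10 was at 144 and 85.8 CPM, so that the spread within this pair was larger than in any other. The ratio of Nlrp10 to Nlrp3 transcripts per length was 65.2 and 34.3 in the baseline CTL mice, 4.28 and 2.84 in the lesional CTL mice, and 56.3 and 24.2 in the lesional butyrate mice. In the baseline butyrate mice it was 66.6 and 287.

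The adaptor gene Pycard varied least. Its levels were 35.0 and 38.4 CPM in baseline CTL, 37.4 and 36.9 CPM in baseline butyrate, 47.5 and 43.7 CPM in lesional CTL, and 45.5 and 41.3 CPM in lesional butyrate mice. All 4 lesional mice were above all 4 baseline mice, by a small margin.

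Casp1, the protease of the canonical inflammasome, was at 22.7 and 29.5 CPM in baseline CTL mice and at 28.4 and 53.4 CPM in baseline butyrate mice, where the higher value belongs to replicate 3. In lesional skin it was at 38.9 and 31.7 CPM with water and at 38.6 and 27.9 CPM with butyrate, and these pairs overlapped. Casp4, which encodes the mouse caspase-11 that senses cytosolic lipopolysaccharide, was at 15.8 and 17.8 CPM in baseline CTL and at 19.3 and 8.34 CPM in baseline butyrate mice. It was at 44.9 and 39.1 CPM in lesional CTL and at 44.4 and 24.2 CPM in lesional butyrate mice. Every lesional mouse was therefore above every baseline mouse for Casp4, and the pairs with and without butyrate overlapped at each state. The ratio of Casp4 to Casp1 per length was 0.724 and 0.631 in baseline CTL mice and 1.21 and 1.29 in lesional CTL mice. It was 0.708 and 0.163 in baseline butyrate mice and 1.2 and 0.907 in lesional butyrate mice, so that all 4 lesional mice were above all 4 baseline mice.

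Aim2, which binds cytosolic DNA, stayed between 8.11 and 11.8 CPM in 7 mice and was at 4.86 CPM in baseline butyrate replicate 3. Gsdmd, the pore-former that caspase-1 and caspase-11 cut, was at 18.4 and 23.2 CPM in baseline CTL mice and at 26.7 and 29.0 CPM in lesional CTL mice. It was at 17.2 and 22.2 CPM in lesional butyrate mice, below both lesional CTL mice. In the baseline butyrate pair Gsdmd was at 26.9 and 5.53 CPM, which hold the second highest and the lowest of its 8 values.

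Il18, the cytokine precursor, followed another order than Nlrp3. It was at 44.4 and 50.8 CPM in baseline CTL mice and at 49.4 and 18.8 CPM in baseline butyrate mice. With HDM it was at 27.6 and 26.0 CPM in CTL mice and at 58.7 and 35.3 CPM in butyrate mice. The lesional CTL mice were the lowest for Il18 apart from baseline butyrate replicate 3.

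**Figure D1:**
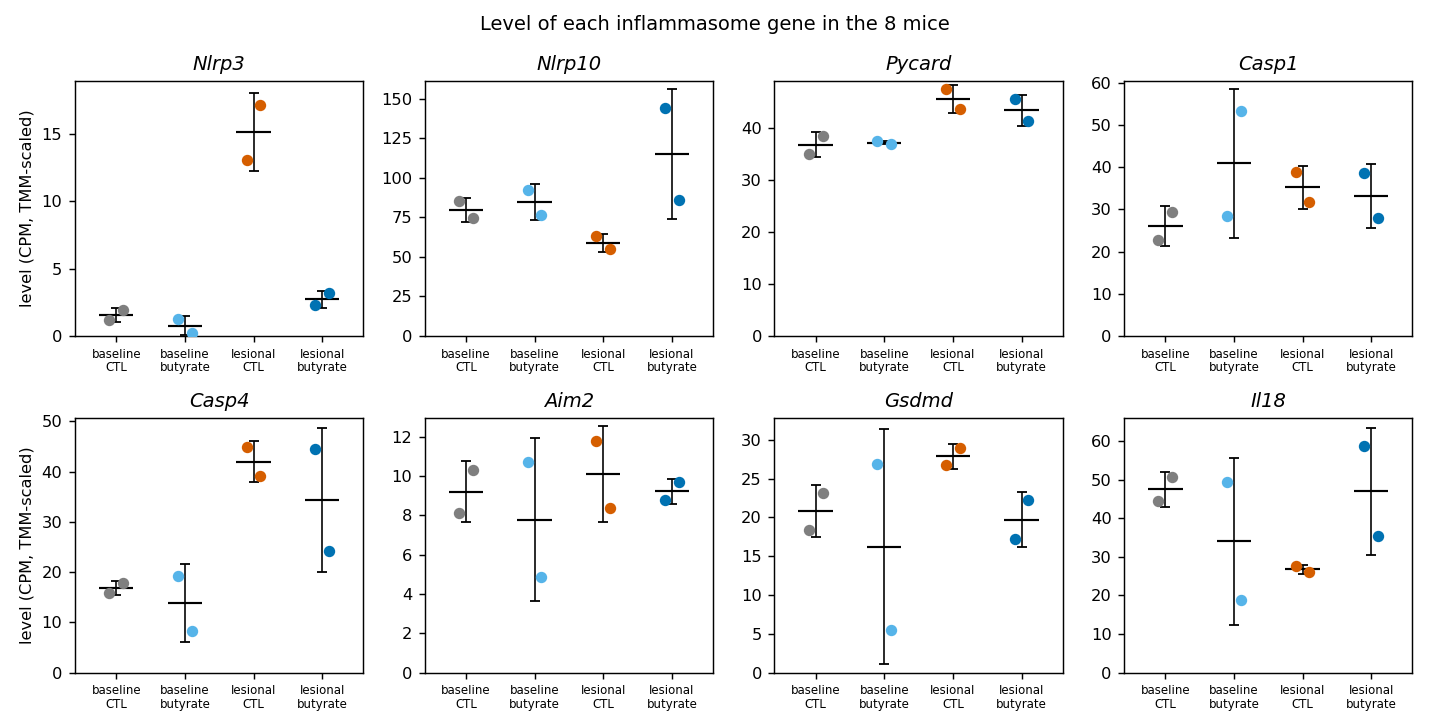
Level of each gene in CPM (vertical axes, linear from 0) in the 8 mice by group (horizontal axes), with points for mice, a horizontal line for the mean of the pair and bars for its SD. Nlrp3 lay at 13.1 and 17.2 CPM in lesional CTL mice and at 3.16 CPM or below in all others, whereas Nlrp10 and Il18 were lowest in lesional CTL skin apart from baseline butyrate replicate 3 for Il18.

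The order of the genes was compared per length, as CPM per kilobase of the longest annotated coding transcript. In baseline CTL skin Il18 was highest, with 53.8 ± 5.10 CPM per kilobase (SD, n = 2), followed by Nlrp10 with 17.7 ± 1.67 and Casp1 with 17.4 ± 3.19, whose mice overlapped. Casp4 at 11.7 ± 1.00 and Gsdmd at 11.6 ± 1.90 CPM per kilobase overlapped too, and were followed by Pycard at 9.65 ± 0.643, Aim2 at 3.24 ± 0.537 and Nlrp3 at 0.387 ± 0.136. In lesional CTL skin Il18 at 30.3 ± 1.29 and Casp4 at 29.3 ± 2.86 CPM per kilobase overlapped at the top, and Nlrp3 at 3.77 ± 0.718 overlapped with Aim2 at 3.56 ± 0.871 at the bottom. In lesional butyrate skin the ends of the order were as in baseline CTL skin, with Il18 at 53.1 ± 18.7 and Nlrp3 at 0.678 ± 0.153 CPM per kilobase. The place of Casp4 depends on the length used, since the union of all its annotated exons gave 4.53 CPM per kilobase in baseline CTL skin, below Pycard and Gsdmd.

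Lesional and baseline skin of mice on water were compared first. Nlrp3 rose by 3.28 on the log2 scale (SE 0.66, 95% interval 1.69 to 4.87), a 9.72-fold difference with an FDR of 0.0728 by edgeR, and it was the only one of the 8 genes called at an FDR below 0.1 and a fold change above 2. Of all tested genes 3.58% were called in this comparison, 2.37% higher and 1.21% lower. Casp4 had the next largest difference, 1.32 (SE 0.44), with an unadjusted p of 0.0237 and an FDR of 0.191 by edgeR. These 2 genes had an unadjusted p below 0.05, as did 19.7% of all tested genes. Pycard differed by 0.31 (SE 0.13), Casp1 by 0.43 (SE 0.34), Gsdmd by 0.42 (SE 0.64) and Aim2 by 0.14 (SE 0.40), and none of these passed the test. For Il18 the difference was -0.83 (95% interval -1.94 to 0.28) and for Nlrp10 it was -0.44 (95% interval -1.07 to 0.19). The mice did not overlap for 7 of the 8 genes, higher for 5 and lower for Il18 and Nlrp10, which reads against 75.2% of all tested genes, 36.7% higher and 38.5% lower. Median differences were 0.37 for the 8 genes and -0.015 for all tested genes.

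The call of Nlrp3 was lost without any 1 of the 4 mice compared or without either lesional butyrate mouse, with FDR values of 0.171 to 0.524 by edgeR. Over all 19 alternatives its FDR was between 9.29e-06 and 0.524, and its log2 fold change between 2.96 and 3.69. Casp4 was called by DESeq2 (FDR 0.0496, with 7.21% of all tested genes called), in the fits of only these 4 mice (FDR 0.00148 by edgeR and 0.00201 by limma-voom, each with 12.9% of its tested genes called) and without baseline butyrate replicate 3 (FDR 0.0222 by edgeR, with 12.5% of its tested genes called) or replicate 1 (FDR 0.0224 by edgeR, with 12.3% called), within a range of 0.00148 to 0.734 over its alternatives. The fit without both baseline butyrate mice, which called Casp4 and Nlrp3, called 12.4% of its tested genes.

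In mice on butyrate, the same comparison called 0 of the 8 genes by edgeR, 2 at an unadjusted p below 0.05, 0 by limma-voom and 2 by DESeq2. Of all tested genes 0.35% were called by edgeR, 4.6% were called by DESeq2, and 13.1% had an unadjusted p below 0.05. Casp4 differed by 1.32 (SE 0.45, unadjusted p = 0.0244) and Nlrp3 by 1.91 (SE 0.68, unadjusted p = 0.0294) on the log2 scale. Without baseline butyrate replicate 3 these differences were smaller, 0.83 for Casp4 and 1.14 for Nlrp3, and neither was called while 5.94% of the tested genes were. Without baseline butyrate replicate 1 the differences were 2.05 and 3.49 and both genes were called, as were Gsdmd and Il18, in a fit that called 19.1% of its tested genes. Nlrp3, Casp4 and Pycard had both lesional mice above both baseline mice, 3 of 8 genes against 15.7% of all tested genes that were higher without overlap and 32.5% that did not overlap in either direction.

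Averaged over water and butyrate, Nlrp3 rose by 2.59 (SE 0.47, FDR 0.0363 by edgeR) and Casp4 rose by 1.32 (SE 0.32, FDR 0.0699 by edgeR) in lesional skin. These 2 of 8 genes were called higher, against 3.38% of all tested genes called higher and 5.22% called in either direction. Pycard differed by 0.27 (SE 0.092), with an unadjusted p of 0.0249 and an FDR of 0.147 by edgeR. An unadjusted p below 0.05 was thus found for 3 of 8 genes and for 24.3% of all tested genes. The same 3 genes had all lesional mice above all baseline mice, as did 8.69% of all tested genes, while 18.0% did not overlap in either direction. For the other 5 genes the averaged differences lay between -0.18 for Il18 and 0.35 for Gsdmd. Both calls were lost without any 1 of the CTL mice or of the lesional butyrate mice, where the FDR by edgeR reached 0.213 for Nlrp3 and 0.281 for Casp4. They were kept without baseline butyrate replicate 3, at log2 fold changes of 2.21 and 1.08, in a fit that called 10.7% of its tested genes, and by DESeq2, which called 7.62% of all tested genes.

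Whether butyrate altered these transcripts in lesional skin was asked next. None of the 8 genes was called by edgeR or by limma-voom, 2 had an unadjusted p below 0.05 and 1 was called by DESeq2, and edgeR called 0.0% of all tested genes, with 4.84% at an unadjusted p below 0.05. Nlrp3 differed most, by -2.47 on the log2 scale (SE 0.62, 95% interval -3.98 to -0.96), a level 5.55-fold lower in butyrate mice, with an unadjusted p of 0.00682 and an FDR of 0.737. Nlrp10 differed by 0.97 (SE 0.26, 95% interval 0.33 to 1.60), or 1.96-fold, with an unadjusted p of 0.00950 and an FDR of 0.797. Il18 differed by 0.81 (SE 0.46, 95% interval -0.30 to 1.92) and Gsdmd by -0.50 (SE 0.64, 95% interval -2.05 to 1.05). The intervals were -0.38 to 0.24 for Pycard, -0.90 to 0.73 for Casp1, -1.35 to 0.76 for Casp4 and -1.10 to 0.84 for Aim2, so that differences of over 2-fold were outside the interval for Pycard and Casp1 only. Both butyrate mice were above both CTL mice for Nlrp10 and Il18 and below them for Nlrp3 and Gsdmd, 4 of 8 genes against 44.9% of all tested genes, 22.4% higher and 22.5% lower.

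Nlrp3 passed the threshold in 4 of 19 alternatives. These were DESeq2, with an FDR of 0.0138 and 0.818% of all tested genes called, and the edgeR fits without baseline butyrate replicate 3 (FDR 0.0434), without baseline butyrate replicate 1 (FDR 0.0452) and without both (FDR 0.0434), in which the SE fell from 0.62 to 0.29 while the log2 fold change was still -2.47. Without either of these mice edgeR called 1.22% of its tested genes, and without both it called 1.25%. With only the 4 lesional mice the FDR was 0.110 by edgeR, with 0.168% of the tested genes called, and the range over all alternatives was 0.0138 to 1.00.

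**Figure D2:**
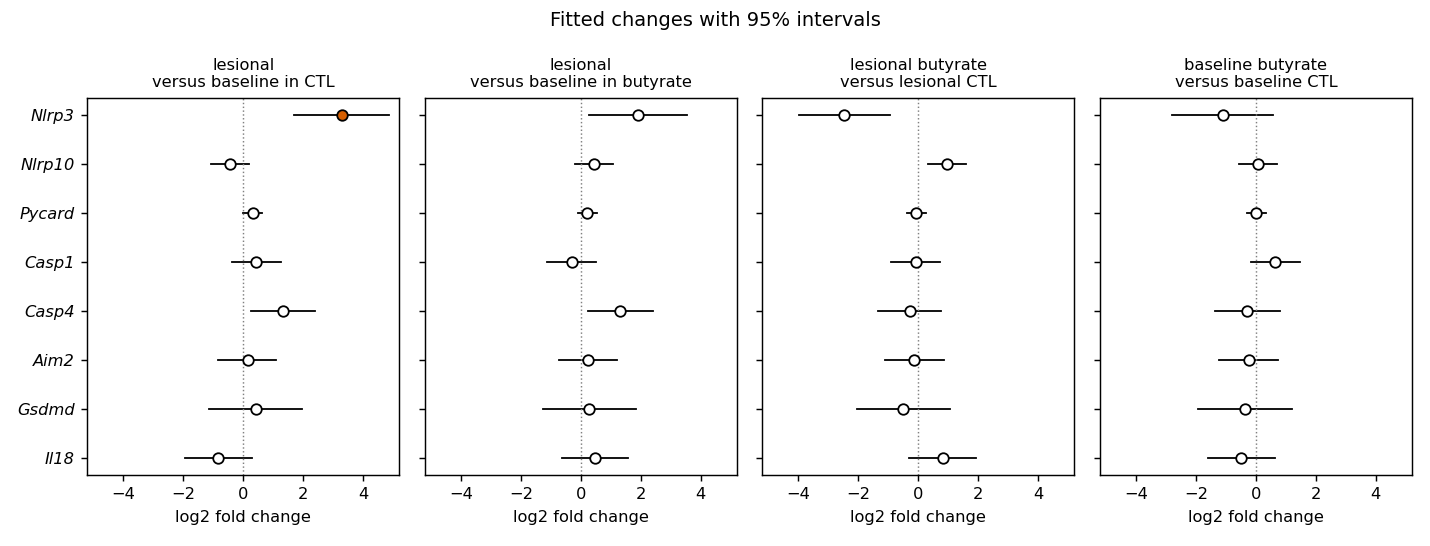
Log2 fold change (horizontal axes) of each of the 8 genes (vertical axis) in 4 comparisons, with lines for 95% intervals of the edgeR fit and a filled point for a gene called at an FDR below 0.1 and a fold change above 2. Only Nlrp3 in lesional against baseline skin of CTL mice is filled, at 3.28, and the intervals of Nlrp3 and Nlrp10 lie on opposite sides of 0 for lesional butyrate against lesional CTL.

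In baseline skin, butyrate called 0 of 8 genes by edgeR, 0 at an unadjusted p below 0.05, and 0 by limma-voom and DESeq2. Of all tested genes 0.0% were called by edgeR, 0.383% were called by DESeq2, and 3.49% had an unadjusted p below 0.05. The groups overlapped for all 8 genes, where 29.7% of all tested genes did not overlap. Differences were between -1.10 (SE 0.69) for Nlrp3 and 0.65 (SE 0.34) for Casp1. Without replicate 3 the ends were -0.32 for Nlrp3 and 0.37 for Gsdmd, and the other 6 lay between them, with Casp1 at 0.12, Casp4 at 0.20 and Il18 at 0.055. Without replicate 1, so that replicate 3 alone stood for butyrate and was assumed to vary like the other groups, 5 genes were called, with Casp1 at 1.03, Il18 at -1.34, Casp4 at -1.01, Gsdmd at -1.92 and Nlrp3 at -2.68, in a fit that called 24.1% of its tested genes.

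The difference between the butyrate effects in lesional and baseline skin was tested as an interaction. It called 0 of 8 genes by edgeR, limma-voom and DESeq2, with 0.0% of all tested genes called by edgeR, and 0 had an unadjusted p below 0.05, against 4.64% of all tested genes. It was 0.89 for Nlrp10 (SE 0.37, unadjusted p = 0.0515), 1.29 for Il18 (SE 0.65, unadjusted p = 0.0913) and -1.38 for Nlrp3 (SE 0.93, unadjusted p = 0.186). Without baseline butyrate replicate 3 the value for Nlrp3 was -2.15, with an unadjusted p of 0.00733 and an FDR of 0.469 by edgeR, within a range of 0.469 to 1.00 over its alternatives. In the same fit the value was 0.76 for Il18 and 0.76 for Nlrp10, and neither was called. Without baseline butyrate replicate 1, when replicate 3 alone stood for baseline butyrate, the interaction was called for Gsdmd (1.42), Nlrp10 (1.03), Casp1 (-1.11) and Il18 (2.15), in a fit that called 20.9% of its tested genes, and the value for Nlrp3 was 0.21.

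In whole skin, fewer cells of a type and less RNA per cell cannot be told apart, and marker levels of some cell types also differed between the groups. The 11 neutrophil markers summed to 23.2 and 27.4 CPM in baseline CTL, 33.1 and 19.9 CPM in baseline butyrate, 2840 and 1770 CPM in lesional CTL, and 800 and 374 CPM in lesional butyrate mice. Of the 8 neutrophil markers tested, 8 were called higher in lesional than in baseline CTL skin, against 2.37% of all tested genes. In lesional butyrate mice 8 were lower than in lesional CTL mice at an unadjusted p below 0.05, against 2.44% of all tested genes. Of these, 0 were called by edgeR, against 0.0% of all tested genes. S100a8 and S100a9, which keratinocytes of inflamed skin also express, averaged 789 and 1150 CPM in lesional CTL mice and held most of the sum. Ly6g, Camp and Ngp, which neutrophils and their precursors express, averaged 0.169, 0.245 and 0.364 CPM there and were too low to be tested. Neutrophil markers and Nlrp3 had the same order of group means in lesional CTL, lesional butyrate and baseline CTL skin. In baseline butyrate skin the marker sum averaged 26.5 CPM against 25.3 CPM in baseline CTL, and Nlrp3 averaged 0.739 against 1.55 CPM. The baseline pairs overlapped for both. The part of neutrophils in the level of Nlrp3 was not tested. The 9 monocyte and macrophage markers summed to 617 and 794 CPM in baseline CTL, 1120 and 304 CPM in baseline butyrate, 1180 and 1370 CPM in lesional CTL, and 645 and 1180 CPM in lesional butyrate mice. Of these 9, 1 was called higher in lesional than in baseline CTL skin, against 2.37% of all tested genes. In lesional butyrate mice 1 was lower than in lesional CTL mice at an unadjusted p below 0.05 by edgeR, against 2.44% of all tested genes. Suprabasal keratinocyte markers, 8 genes, summed to 16400 and 15300 CPM in baseline CTL and to 15000 and 3710 CPM in baseline butyrate mice. They summed to 5250 and 6410 CPM in lesional CTL and to 15200 and 11600 CPM in lesional butyrate mice, so that their lowest sums were in the same 3 mice as the lowest values of Il18. This did not hold for each marker. By log2 fold change 7 of the 8 were lower in lesional than in baseline CTL skin and 1, Ivl, was higher. Ivl averaged 147 CPM in baseline CTL and 166 CPM in lesional CTL mice, and was at 344 CPM in baseline butyrate replicate 3. The part of suprabasal keratinocytes in the level of Il18 and Nlrp10 was not tested. None of the listed markers was at 0 in all mice.

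**Figure D3:**
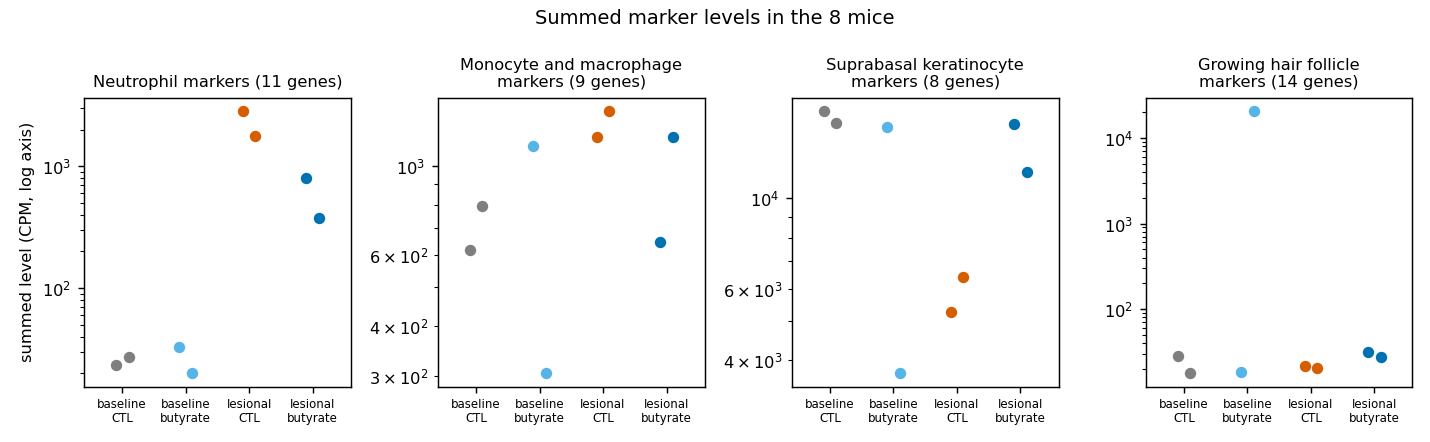
Summed level in CPM (vertical axes, log scale) of 4 marker lists in the 8 mice by group (horizontal axes), with a point for each mouse. Neutrophil markers were at 1770 and 2840 CPM in lesional CTL mice and at 374 and 800 CPM in lesional butyrate mice, suprabasal keratinocyte markers were lowest in baseline butyrate replicate 3 and the lesional CTL mice, and the growing hair follicle markers reached 20700 CPM in baseline butyrate replicate 3.

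The genes with the profile most like that of Nlrp3, Nlrp10 and Il18 were sought by the root mean square difference of centred log2(CPM + 0.5) over the 8 mice, in 14197 genes that averaged 1 CPM or more. Hdc, which makes histamine, was nearest to Nlrp3 with 0.257, followed by the carbonic anhydrase gene Car4 with 0.303 and the cytokine gene Osm with 0.308, while Nlrp3 itself spanned 4.58 on this scale. Among the inflammasome genes Casp4 was nearest to Nlrp3, with 0.908. Nearest to Nlrp10 were 9930012K11Rik with 0.0742, the rhomboid protease gene Rhbdl2 with 0.129 and the Wnt pathway activator gene Rspo1 with 0.161, over a span of 1.39. For Il18 the nearest were the fatty acid elongase gene Elovl1 with 0.125, the fucosyltransferase gene Fut2 with 0.141 and Eps8l1 with 0.154, over a span of 1.61. Elovl1, for example, was at 327 and 299 CPM in baseline CTL mice, 314 and 121 CPM in baseline butyrate mice, 177 and 193 CPM in lesional CTL mice and 403 and 270 CPM in lesional butyrate mice. The 3 values of likeness rest on 8 libraries in which 1 stood apart.

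Il1b and Il18rap rose in lesional CTL skin, whereas Il18 did not pass the test. Il1b, the other precursor that caspase-1 cuts, was at 4.56 and 2.55 CPM in baseline CTL mice and at 132 and 136 CPM in lesional CTL mice, a log2 fold change of 5.23 (SE 0.61, FDR 0.0294 by edgeR). It was at 19.9 and 25.5 CPM in lesional butyrate mice, below both lesional CTL mice, with a log2 difference of -2.56 (SE 0.53, unadjusted p = 0.00250, FDR 0.737 by edgeR). Il18rap, a subunit of the IL-18 receptor, was at 4.06 and 3.94 CPM in baseline CTL, 30.1 and 23.0 CPM in lesional CTL, and 9.55 and 8.37 CPM in lesional butyrate mice. It was called in CTL mice, at a log2 fold change of 2.73 (FDR 0.0738 by edgeR), and its log2 difference between lesional butyrate and lesional CTL mice was -1.56 (unadjusted p = 0.0239, FDR 0.933 by edgeR). Il18r1, the other subunit, was at 9.06 and 8.55 CPM in baseline CTL and at 31.3 and 19.5 CPM in lesional CTL mice, a log2 difference of 1.53 (unadjusted p = 0.0405, FDR 0.234 by edgeR). Of these 5 genes, which include Il1a and the inhibitor gene Il18bp, 2 were called higher in lesional CTL skin, against 2.37% of all tested genes. For butyrate in lesional skin 0 were called, against 0.0% of all tested genes.

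Of 11 other sensor genes 9 were tested, and 2 were called higher in lesional CTL than in baseline CTL skin, with 0 called lower. Of all tested genes 2.37% were called higher and 1.21% lower. Mefv, which encodes pyrin, was at 1.39 and 1.78 CPM in baseline CTL, 12.9 and 12.6 CPM in lesional CTL, and 4.96 and 6.61 CPM in lesional butyrate mice. Its log2 fold change with HDM was 3.00 (SE 0.46, FDR 0.0412 by edgeR) in mice on water. Nlrp12 was at 0.333 and 0.389 CPM in baseline CTL, 3.31 and 5.21 CPM in lesional CTL, and 0.286 and 0.837 CPM in lesional butyrate mice, and its log2 fold change with HDM on water was 3.54 (SE 0.72, FDR 0.0738 by edgeR). Between lesional butyrate and lesional CTL mice the log2 differences were -2.91 for Nlrp12 (unadjusted p = 0.00465, FDR 0.737 by edgeR) and -1.14 for Mefv (unadjusted p = 0.0325, FDR 0.955 by edgeR). The median over the 9 genes was -0.56 in that comparison, against -0.0053 over all tested genes.

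Among 16 triggers and regulators, 15 were tested, and 1 was called higher and 1 lower in lesional CTL than in baseline CTL skin. The shares over all tested genes were 2.37% higher and 1.21% lower. Pstpip1, which encodes a pyrin-binding protein, was at 8.17 and 11.4 CPM in baseline CTL and at 22.8 and 21.0 CPM in lesional CTL mice, a log2 fold change of 1.16 (SE 0.21, FDR 0.0549 by edgeR). In lesional butyrate mice Pstpip1 was at 12.2 CPM in each, with a log2 difference of -0.84 from lesional CTL mice (unadjusted p = 0.00573, FDR 0.737 by edgeR). Txnip, which encodes a thioredoxin-binding protein, was at 1260 and 1370 CPM in baseline CTL and at 347 and 399 CPM in lesional CTL mice, and fell by 1.82 on the log2 scale (FDR 0.0858 by edgeR). On butyrate the log2 difference of Txnip was -1.21 (FDR 0.302 by edgeR). P2rx7, the ATP-gated channel, was at 40.4 and 32.6 CPM in baseline CTL, 20.5 and 21.7 CPM in lesional CTL, and 16.6 and 22.4 CPM in lesional butyrate mice. Its log2 difference was -0.79 on water (FDR 0.117 by edgeR) and -0.89 on butyrate (FDR 0.198 by edgeR). Panx1 differed by 0.56 on water (FDR 0.201 by edgeR) and by 0.25 on butyrate (FDR 0.651 by edgeR). Casp8 differed by 0.52 on water (FDR 0.19 by edgeR) and by 0.65 on butyrate (FDR 0.258 by edgeR).

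Gsdmc, Gsdmc2 and Gsdmc4 rose in lesional skin under both treatments. Of the 8 other gasdermin genes and the membrane rupture gene Ninj1, 9 had a positive log2 fold change in CTL mice, 5 were called higher against 2.37% of all tested genes, and the median was 3.16 against -0.015 over all tested genes. The 5 called were Gsdmc, Gsdmc2, Gsdmc3, Gsdmc4 and Gsdma3, of which Gsdmc3 and Gsdma3 are named after their values were seen. Gsdmc was at 1.44 and 2.44 CPM in baseline CTL mice, 175 and 117 CPM in lesional CTL mice, and 125 and 101 CPM in lesional butyrate mice. Its log2 fold change was 6.23 on water (SE 0.83, FDR 0.0372 by edgeR) and 5.78 on butyrate (SE 0.82, FDR 0.0946 by edgeR). Gsdmc2 had 2 counts over both baseline CTL mice and 655 over both lesional CTL mice, a ratio of 292 with an exact counting interval of 80.5 to 2420. For Gsdmc4 these were 8 and 520 counts, a ratio of 57.9 (29.2 to 135), and for Gsdmc3 they were 1 and 50 counts, a ratio of 44.6 (7.64 to 1790). In butyrate mice 3 of the 9 were called higher, Gsdmc, Gsdmc2 and Gsdmc4, against 0.277% of all tested genes. Gsdma2 was at 0.5 and 0.222 CPM in baseline CTL and at 2.46 and 4.11 CPM in lesional CTL mice, with FDR values of 0.117 on water and 0.230 on butyrate by edgeR. The Gsdmc genes are close copies of each other, as are the Gsdma genes, so that the division of reads within each set is uncertain. Between lesional butyrate and lesional CTL mice 0 of the 9 were called by edgeR and 0 had an unadjusted p below 0.05. The shares over all tested genes were 0.0% and 4.84%. The median difference of the 9 was -0.37. For Gsdmd the log2 difference with HDM on water was 0.42 (SE 0.64), and its difference from those of the Gsdmc genes was not tested.

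The calls of these other genes depend on single mice. Of the 11 called in CTL mice over the 4 lists, 11 were called without either baseline butyrate mouse, 3 without either lesional butyrate mouse (Gsdmc2, Gsdmc4 and Il1b), 1 without either lesional CTL mouse (Gsdmc2) and 0 without either baseline CTL mouse. Of the 3 called in butyrate mice, 3 were called without either baseline butyrate mouse, 1 (Gsdmc2) without lesional CTL replicate 5 and 0 without any other mouse.

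**Figure D4:**
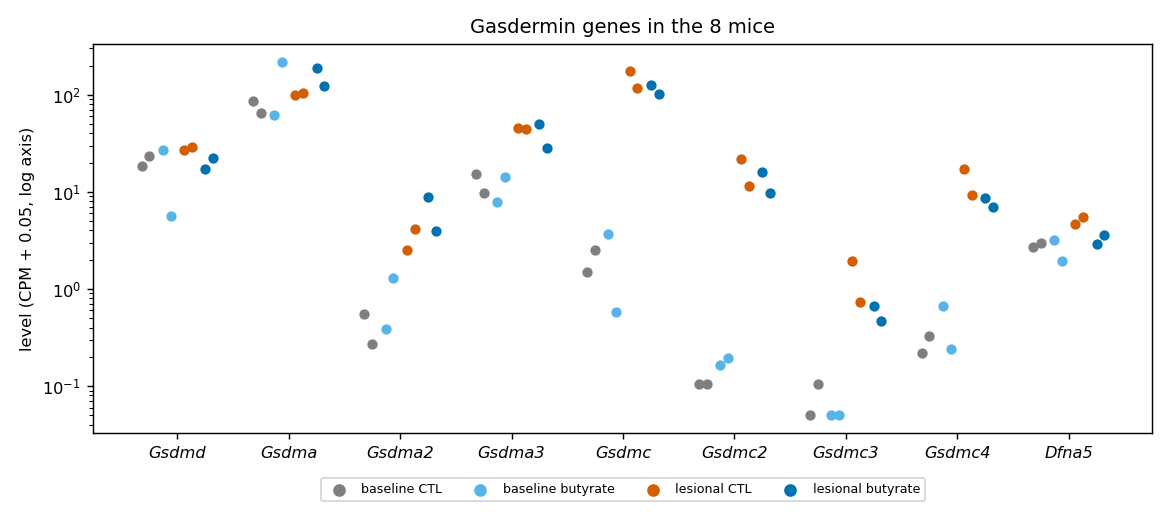
Level of Gsdmd and 8 other gasdermin genes in CPM (vertical axis, log scale, with 0.05 CPM added so that 0 can be drawn) in the 8 mice, with a point for each mouse coloured by group. Gsdmc was at 101 to 175 CPM in the 4 lesional mice and at 0.524 to 3.66 CPM in the 4 baseline mice, while the groups of Gsdmd differed less.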

How the data were processed

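Transcripts of whole skin were measured in 8 mice. The authors aligned reads to GRCm38 with STAR 2.5.2 through RNASik, obtained a count per gene from featureCounts, and deposited raw counts for protein-coding genes only. From these counts, genes were filtered by expression (minimum count 10) and libraries scaled by TMM with edgeR 4.0.16 in R 4.3.3. One quasi-likelihood model (robust) held all 4 groups, with Benjamini-Hochberg adjustment over 15163 genes, and 6 contrasts were tested. A gene was called at an FDR below 0.1 and a fold change above 2. Alternatives used limma-voom (limma 3.58.1), DESeq2 1.42.0, other scalings, filters and thresholds, fewer groups, and each mouse left out. Poisson and binomial intervals (95%) cover counting error only.

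Labels gave the groups, with SCFA read as butyrate and vehicle as CTL. The p-values of the main fit rest on a spread between replicate mice that was estimated over all 4 groups together, with 2 mice per group. The members and lists were chosen with earlier results of these data known. Named genes of the 4 other lists have a mean of at least 1 CPM and an unadjusted p below 0.05, up to 4 per list and comparison, plus Il1b. Fits were tested on simulated data in which all mice varied alike. Baseline butyrate replicate 3 did not, so that test does not cover the spread seen in these mice.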

Additional observations from a re-analysis of the deposited data

How the results depend on the processing

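The direction of Nlrp3 was kept in all alternatives run for lesional against baseline skin and for butyrate in lesional skin, and that of Casp4 in all run for lesional against baseline skin. The number of the 8 genes called for butyrate in lesional skin was 0, against 1 with DESeq2, 1 without both baseline butyrate mice, and 0 to 1 with each mouse left out. In baseline skin the number called for butyrate was 0, and 0 to 5 with each mouse left out. For lesional against baseline CTL skin it was 1, against 0 at an FDR below 0.05, 2 with DESeq2, 2 in either fit of only the 4 mice, 2 without both baseline butyrate mice, and 0 to 2 with each mouse left out. On butyrate it was 0, against 2 with DESeq2, and 0 to 4 with each mouse left out. Averaged over treatments it was 2, against 1 at an FDR below 0.05, and 0 to 3 with each mouse left out. The interaction called 0, and 0 to 4 with each mouse left out. Shares of all tested genes called are given above for only some of these fits, and for none at an FDR below 0.05. The counts alone therefore do not show whether the 8 genes changed more often than other genes. Fewer mice in a fit leave fewer degrees of freedom. The cause of the other changes was not tested.

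Log2 fold changes that turned with a mouse left out are given by their ranges over the fits without each mouse. For butyrate in lesional skin, their ranges were -0.34 to 0.13 for Casp1, -0.79 to 0.081 for Casp4 and -0.36 to 0.14 for Aim2. In baseline skin they were -0.063 to 0.21 for Nlrp10, -0.05 to 0.086 for Pycard, -1.01 to 0.20 for Casp4, -0.92 to 0.22 for Aim2, -1.92 to 0.37 for Gsdmd and -1.34 to 0.055 for Il18. For lesional against baseline CTL skin the range was -0.14 to 0.37 for Aim2. On butyrate the ranges were -0.68 to 0.23 for Casp1, -0.21 to 0.93 for Aim2, -0.45 to 1.84 for Gsdmd and -0.073 to 1.32 for Il18. Averaged over treatments they were -0.21 to 0.18 for Nlrp10 (-0.02 with limma-voom), -0.12 to 0.33 for Casp1, -0.04 to 0.53 for Aim2, -0.012 to 1.13 for Gsdmd and -0.45 to 0.25 for Il18. For the interaction they were -2.15 to 0.21 for Nlrp3, -0.51 to 0.72 for Casp4 (0.081 with limma-voom), -0.35 to 0.80 for Aim2 and -0.87 to 1.42 for Gsdmd (0.31 with limma-voom). No paired analysis was possible because no 2 of the groups compared have more than 1 replicate number in common. The length used for the per-length levels was varied after seeing the data and moved 4 of the 8 baseline CTL levels by more than their SD.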

Other observations

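Naip1 and Gsdma were highest in baseline butyrate replicate 3. Naip1, which encodes a sensor of bacterial secretion needles and was too low to be tested, was at 3.67 CPM in that mouse and at 0.00 to 0.169 CPM in the other 7. Gsdma, a gasdermin of differentiated epithelium, was at 219 CPM there and at 62.1 CPM in the other baseline butyrate mouse, while the lesional mice were at 98.5 to 188 CPM. It was tested and not called for butyrate in baseline skin, with a log2 difference of 0.91 (unadjusted p = 0.150 by edgeR). Growing hair follicle markers summed to 20700 CPM in the same mouse, and their part in these levels was not tested. Both genes were named after their values were seen.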
